A study of Ovis aries with 6 samples.

Results

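The small RNA count table of sheep longissimus muscle, the long muscle of the back, held 2025 predicted loci that carry no miRNA name and whose listed mature sequence is 17 to 19 nt long. They were chosen from the 11161 sequences of the table by their label alone: a chromosome number in place of a miRNA name, the ending for the mature arm, no known name attached, and at most 19 bases, with 7 loci of tRNA sequence left out. No count was used to choose them. The table also held 1630 unnamed mature loci of 20 nt or more, 3836 unnamed star-arm sequences and 3663 sequences with a known miRNA name. The files give the chromosome of each locus within its name but no start or end, so a locus is named here by chromosome and serial number, as in chr4_14136. Whether it lies in an exon, an intron or between genes was not analysed here.

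Libraries came from 2 breeds with 3 libraries each: Qianhua Mutton Merino, abbreviated QHMM, and Small Tail Han, abbreviated STH. Per the labels, all were total RNA from longissimus muscle of sheep kept under natural conditions, with no treatment other than the breed itself. The labels give no age or sex, and they do not say that the 3 libraries of a breed came from separate animals, so a p-value reflects how these libraries vary, which may be technical. RNA was size-selected on a gel and read from 1 end on an Ion Proton instrument. The comparison asks which of these short sequences differ in count between the breeds.

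A miRNA is cut from a hairpin RNA by Drosha and then Dicer, which leaves a duplex of a mature strand and a star strand. The mature strand is loaded into an Argonaute protein and finds its targets mainly through its seed, the bases just after the first. Prediction programs scan a genome for hairpins whose arms collect reads, and a short read matches a genome at more places than a long one, so short predicted sequences need closer inspection than those of full miRNA length. Muscle is known for very high levels of a few miRNAs, the myomiRs miR-1, miR-133 and miR-206.

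The most abundant of the loci fell into a few kinds of sequence, and the 10 with the highest mean level, 1 per distinct sequence, are shown first because they took 51.9% of the loci's counts.
chr4_14136: gaggcgggggtcggctc
chr1_2372: actcttagtggtggatcac
chr3_9258: actattcctaagcccaa
chr19_36378: cgactcttagcgatgga
chr21_38936: tacctggttgattctgc
chr11_23731: tacctggttgatcctgc
chr17_32710: tccccggcatctccact
chr21_38828: gggggccggcggcggcc
chr2_7839: agcgccgcgggagcctc
chr25_42777: actggacctggagtcaga
From general knowledge, and matched to no reference here, the sequence at chr11_23731 is the start of 18S ribosomal RNA, chr21_38936 is close to it, and chr1_2372 and chr19_36378 resemble the start of 5.8S ribosomal RNA. In the same way chr17_32710 resembles the 3′ end of an alanine tRNA, although the 7 loci left out for tRNA sequence did not include it.

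A second kind lay close to an abundant miRNA of the same table. Loci at 1 edit are shown with the listed miRNA they are nearest to, since a whole group of the results below concerns them. An edit is 1 base substituted, inserted or deleted. Capitals mark the base that differs from the miRNA or was inserted, or, for a deletion, the bases on both sides of the missing one.
miR-1, listed as miR-1b: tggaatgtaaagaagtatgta
chr16_31923: tggaatgtaaaTgaagt
chr9_21472: tggaatgtaaagAaagt
chr12_26312: atTtaaagaagtatgta
chr20_38030: tggaatgAtaaagaagta
chr1_3001: tggaatgtaaagaaCtat
miR-378 sequence, which the table calls miR-3557-5p: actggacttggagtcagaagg
chr25_42777: actggacCtggagtcaga
miR-145-5p: gtccagttttcccaggaatccc
chr15_30877: gtccaGTttcccaggaatc
miR-451-5p: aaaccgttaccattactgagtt
chr24_41628: ttaccattaCctgagtt
Counted from the first base of the miRNA, with the base of the miRNA first, the substitution was G7T at chr12_26312, G15C at chr1_3001 and T8C at chr25_42777. These 8 near loci were chosen for display after their counts were seen, apart from chr25_42777, which is among the 10 most abundant.

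The 2025 loci together were a small share of the muscle small RNA. Their 658839 counts were 1.12% ± 0.132 (SD, n = 6) of the counts of a library. The share was 1.09, 0.98 and 1.35% in QHMM replicates 1 to 3 and 1.06, 1.05 and 1.19% in STH replicates 1 to 3. The breeds overlapped, at 1.14% ± 0.19 (SD, n = 3) in QHMM and 1.10% ± 0.0783 (SD, n = 3) in STH. Unnamed mature loci of 20 nt or more took 1.09% ± 0.252 in QHMM and 2.22% ± 0.207 in STH, and did not overlap. Library totals ran from 8062231 to 11282332 counts, and with 1 row kept per name from 5572866 to 7930206. CPM below is counts per 1000000 of that last total, so 1 count was worth 0.126 to 0.179 CPM.

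Most of the loci were rare and a few were abundant. The median locus had 7 counts summed over the 6 libraries, with quartiles of 4 and 38, and 19 loci had no count in any library. The 100 most abundant loci held 85.9% of the counts. In all 6 libraries 621 loci (30.7%) had at least 1 count and 329 had at least 10, against 388 (23.8%) of the longer unnamed loci with at least 1. The number of loci with a count was 1117, 1070 and 1201 in the QHMM libraries and 1271, 1339 and 1543 in the STH libraries. STH was therefore higher in every library, and remained so after all libraries were thinned to the smallest total, with 1048 to 1126 loci in QHMM and 1201 to 1424 in STH. With 3 libraries a side no test of this number was made. It was not counted per library for the longer loci or the other sequences of the table, so it may not be particular to the short loci.

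By length, 17 nt was the most frequent, with 986 loci and 482007 counts, followed by 605 loci of 18 nt with 60230 counts and 434 of 19 nt with 116602 counts. Just past the limit, 408 loci of 20 nt had 46359 counts. Chromosomes 2 (209 loci), 1 (184) and 3 (169) held the most loci and chromosome 26 (21) the fewest.

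In base composition the short loci held more G than the named sheep miRNAs. Their mean G content was 32.8%, against 27.1% in the longer unnamed loci and 24.2% in the 153 sheep miRNAs of the table. G was the first base in 31.2% of the short loci, 20.5% of the longer ones and 9.15% of the sheep miRNAs, while T, the U that Argonaute binds well at the start of a miRNA, was first in 20.7%, 31.2% and 40.5%. A was first more often than T in each class, at 31.2%, 33.6% and 42.5%. Sequences of at least 80% G and C made up 168 loci (8.3%) and held 25.8% of the counts of the short loci, chr4_14136 and chr21_38828 among them. Much of that share was 1 locus, since chr4_14136 alone had 90708 of the 658839 counts. In the longer loci they made up 2.33% and held 0.909% of the counts, and no sheep miRNA was that rich in G and C.

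The opposite arm of the hairpin was counted less. A true Dicer product leaves both strands of the duplex, and each of the 2025 loci had a star sequence in the table. It had at least 1 count at 1757 loci (86.8%), but its median was 3 counts, and all star sequences together had 71970 counts against 658839 for the mature arm. The longer unnamed loci were close to this. Their star sequence was counted at 91.9%, with a median of 4, and summed to 116987 counts against 976397. Of 358 short loci with at least 100 mature counts, 52 (14.5%) had a star count of at least 10% of the mature count. Among the longer unnamed loci it was 45 of 117 (38.5%). The star sequence was counted more often than the mature one at 391 short loci (19.3%) and 410 longer ones (25.2%). The most abundant case among the short loci was chr17_32710, whose star arm had 20578 counts and whose mature arm had 16206.
chr17_32710, star arm: tatgaggccccgggttc
This star sequence is, again from general knowledge, also a stretch of an alanine tRNA.

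Taken one by one, the 10 most abundant loci did not pass the test between breeds, and their spread within a breed differed widely. chr4_14136 had 8480, 12399 and 19886 counts in QHMM against 22107, 12553 and 15283 in STH. No star count was recorded for it, and the breeds overlapped. chr1_2372 had 14299, 12087 and 15514 counts in QHMM against 9846, 8165 and 15652 in STH, again with overlap. The second sequence that resembles 5.8S ribosomal RNA, at chr19_36378, had 7125, 4282 and 7332 counts in QHMM against 4025, 3181 and 6255 in STH.

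The locus chr3_9258 stood apart for its spread. It had 14112, 1303 and 12498 counts in QHMM against 1525, 13044 and 12071 in STH. QHMM replicate 2 and STH replicate 1 were thus low and the other 4 libraries high, 10.1-fold apart in CPM from lowest to highest. The same division ran through both breeds, so the breed means, 1260 CPM ± 895 and 1280 CPM ± 975 (SD, n = 3 each), were nearly equal (adjusted p = 0.974). The labels give no batch that separates these libraries.

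The paired sequences of 18S ribosomal RNA start moved together. chr21_38936 had 4533, 1946 and 4900 counts in QHMM against 1761, 1710 and 4725 in STH. chr11_23731, which differs from it by 1 edit, had 4026, 1524 and 4216 in QHMM and 1432, 1562 and 4003 in STH. At both loci QHMM replicate 2 and STH replicates 1 and 2 were low. Whether a read that lies within 1 edit of both was counted at one of them or at each is unknown here.

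The tRNA-like chr17_32710 had 2155, 1026 and 3200 counts in QHMM against 3075, 2702 and 4048 in STH, a log2 fold change (QHMM over STH) of -0.63 ± 0.301 (SE, adjusted p = 0.379). The G- and C-rich chr21_38828 had 3301, 2878 and 3142 counts in QHMM against 1614, 1367 and 1882 in STH. It was the only one of the 10 whose breeds did not overlap, with 459 CPM ± 50.6 in QHMM and 226 CPM ± 9.46 in STH (SD, n = 3 each). Its log2 fold change was 1.03 ± 0.265 (SE), with an adjusted p of 0.0735 in edgeR and 0.0262 in DESeq2. It passed the threshold in 2 of 15 alternative fits. chr2_7839, also rich in G and C, had 1601, 1660 and 2573 counts in QHMM against 2068, 1449 and 1923 in STH, and the breeds overlapped. Over the 10 loci the adjusted p ran from 0.0735 to 0.974.

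**Figure D1:**
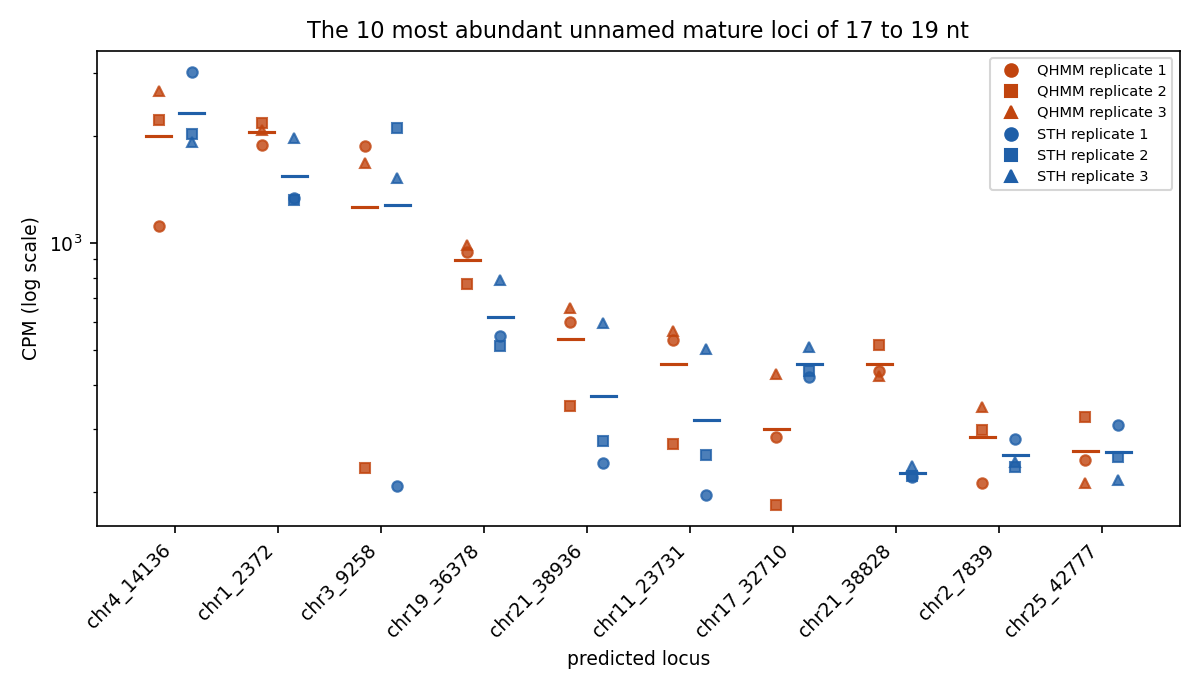
CPM (log scale) of the 10 most abundant unnamed mature loci of 17 to 19 nt in longissimus muscle. Points are single libraries, coloured by breed and shaped by replicate, and horizontal bars are means of 3 libraries. chr3_9258 splits into 2 low and 4 high libraries, and chr21_38828 is the locus whose QHMM and STH libraries do not overlap.

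Loci close to a listed miRNA were a minority, but their median count was higher than that of the rest. Each locus was compared with every sequence of the table that has a known miRNA name, and the smallest number of edits that places the locus within such a sequence was counted. None was needed for 6 loci, 1 for 55 and 2 for 131, which gives 192 loci (9.48%) within 2 edits. They held 19.6% of the counts, and their median was 85.5 counts against 6 for the loci farther away. Loci at 4 or more edits held 69.6% of the counts. To compare classes of unequal length, only the first 17 bases of each sequence were used. In that window 219 (10.8%) of the short loci lay within 2 edits, against 47 (2.88%) of the longer unnamed loci and 91 (2.82%) of the star sequences of at least 17 nt. Within 1 edit it was 77 (3.8%), 5 (0.307%) and 2 (0.0619%). A predicted locus that was given a known miRNA name is in none of these classes and stands among the listed miRNAs, so the naming itself shapes these shares. They are descriptions without a test, also because loci that resemble each other are not independent.

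**Figure D2:**
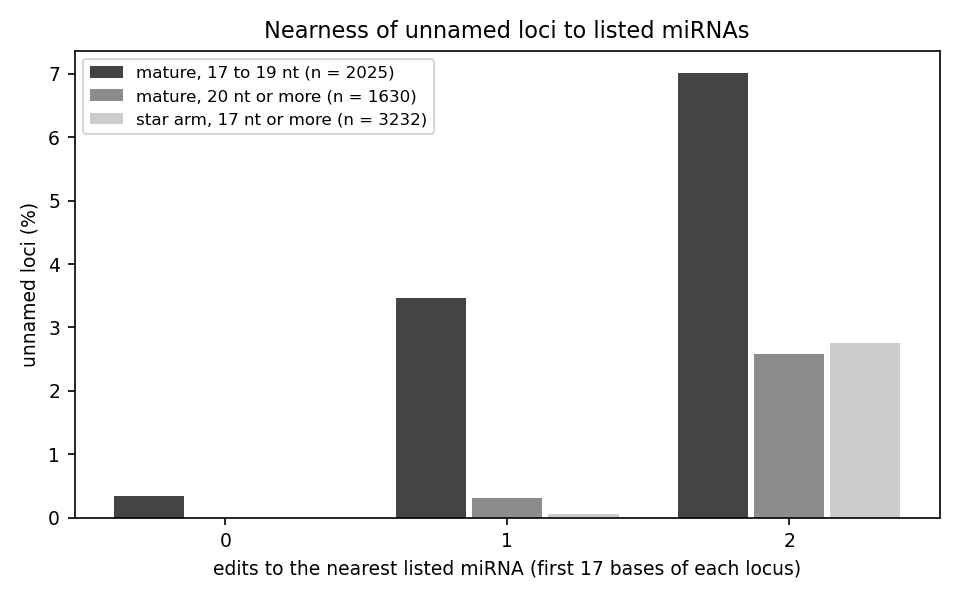
Share of unnamed loci (percent) whose first 17 bases lie 0, 1 or 2 edits from the nearest listed miRNA, for mature loci of 17 to 19 nt, mature loci of 20 nt or more and star-arm sequences of 17 nt or more. At 1 edit the short mature loci reach 3.46%, and the longer mature loci 0.307%. Loci that were given a known miRNA name are in none of these classes.

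The kinds of edit were mixed. Of the 55 loci at 1 edit, 18 had a substitution (22013 counts), 25 an inserted base, 7 a missing base and 5 a difference at the end base (859 counts). Of the insertions 15 repeated a neighbouring base, single or in a run (9100 counts), and 10 did not (15411 counts). Of the missing bases 5 shortened a run (8676 counts) and 2 did not (100 counts). Ion Proton sequencing reads a run of the same base from the size of 1 signal, and run length is its known type of error. The part of such errors in these counts was not tested, nor was that of real variants or of related genome copies.

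miR-1, the myomiR with the most counts in the table, had the most near loci. The sequence listed as miR-1b had 15252614 counts, and 46 of the short loci, on 20 chromosomes, lay within 2 edits of it and no nearer to another miRNA. Where a locus was equally near to several miRNAs, it was given to the one with the most counts. The 46 loci held 64813 counts, 9.84% of all counts of the short loci. In the QHMM libraries they had 10735, 9143 and 10303 counts and in the STH libraries 11040, 10139 and 13453. Per 10000 counts of miR-1 they had 41.9, 39.1 and 40.7 in QHMM and 47.7, 43.1 and 42.6 in STH. The lowest and highest of these ratios were 1.22-fold apart.

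The breeds did not overlap in this ratio, with 40.6 ± 1.42 (SD, n = 3) in QHMM and 44.5 ± 2.84 (SD, n = 3) in STH, but the gap between the highest QHMM and the lowest STH library was smaller than the spread within either breed. Of the 46 loci 44 had enough counts for the breed test. Their log2 fold changes ran from -0.84 to 0.91 with a median of -0.16, and the lowest adjusted p was 0.31.

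Single loci near miR-1 varied more than their sum. The most abundant, chr10_22531, singled out for its counts, lies 2 edits away and had 1515, 1543 and 1958 counts in QHMM against 2162, 1605 and 1742 in STH.
chr10_22531: tggaatctaagaagtat
The inserted T of chr16_31923 came with 1478, 1144 and 1404 counts in QHMM against 1310, 1367 and 1446 in STH, or between 4.58 and 5.82 per 10000 counts of miR-1 in every library. chr9_21472, with 1 more A in a run, had 928, 633 and 826 counts in QHMM against 742, 746 and 913 in STH. Relative to miR-1, chr9_21472 stood at 2.71 to 3.63 per 10000. At chr12_26312, the G7T form, which lacks the first bases of miR-1, the counts were 533, 504 and 544 in QHMM and 954, 808 and 970 in STH. This locus was lower in each QHMM library than in any STH library, with a log2 fold change of -0.70 and an adjusted p of 0.31. Relative to miR-1 it stood at 2.08 to 2.16 per 10000 in QHMM and 3.07 to 4.13 in STH. Wider still were chr3_8748, at 0.849 to 2.31 per 10000 across the 6 libraries, and chr1_3813, at 0.77 to 2.03, with 2060 and 2049 counts in total.

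Other abundant miRNAs had fewer such loci. The sequence of miR-378, a miRNA of mitochondrial and lipid metabolism, had 9 near loci with 11620 counts, or 109 ± 10.4 (SD, n = 6) per 10000 counts of the listed sequence and 96 to 124 across libraries. chr25_42777, the T8C form, made up most of them, with 1857, 1804 and 1575 counts in QHMM against 2255, 1548 and 1711 in STH. miR-145-5p, a miRNA of smooth muscle in vessel walls, had 10 near loci with 9336 counts and 73.6 ± 9.78 (SD, n = 6) per 10000. Most of these counts were of chr15_30877, one base shorter in a run of T, which had 1049, 968 and 1208 counts in QHMM against 1988, 1092 and 1607 in STH. miR-206-3p, a myomiR that differs from miR-1 at few bases, had 5 near loci with 1859 counts and 12.5 ± 0.993 (SD, n = 6) per 10000. miR-133 had 3 near loci with 570 counts, or 1.17 ± 0.326 per 10000, far below the ratio of miR-1 although it is the other leading myomiR. The ratio thus differed by miRNA more than by library.

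Red blood cells carry miR-451, which had 1 near locus. miR-451-5p had 141148, 109450 and 613174 counts in QHMM against 51856, 83930 and 66102 in STH. chr24_41628, which repeats a single C of it, had 251, 156 and 1814 counts in QHMM against 137, 193 and 304 in STH. QHMM replicate 3 was the highest library for both, but the other 5 libraries did not follow the same order: the locus was next highest in STH replicate 3, where miR-451-5p was second lowest. Per 10000 counts of miR-451-5p the locus had 17.8, 14.3 and 29.6 in QHMM and 26.4, 23.0 and 46.0 in STH, a wider range than for miR-1. The summed level of 8 red blood cell miRNA names was 19000 to 84300 CPM in QHMM and 7300 to 13800 CPM in STH. The share of blood in the other loci was not tested.

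**Figure D3:**
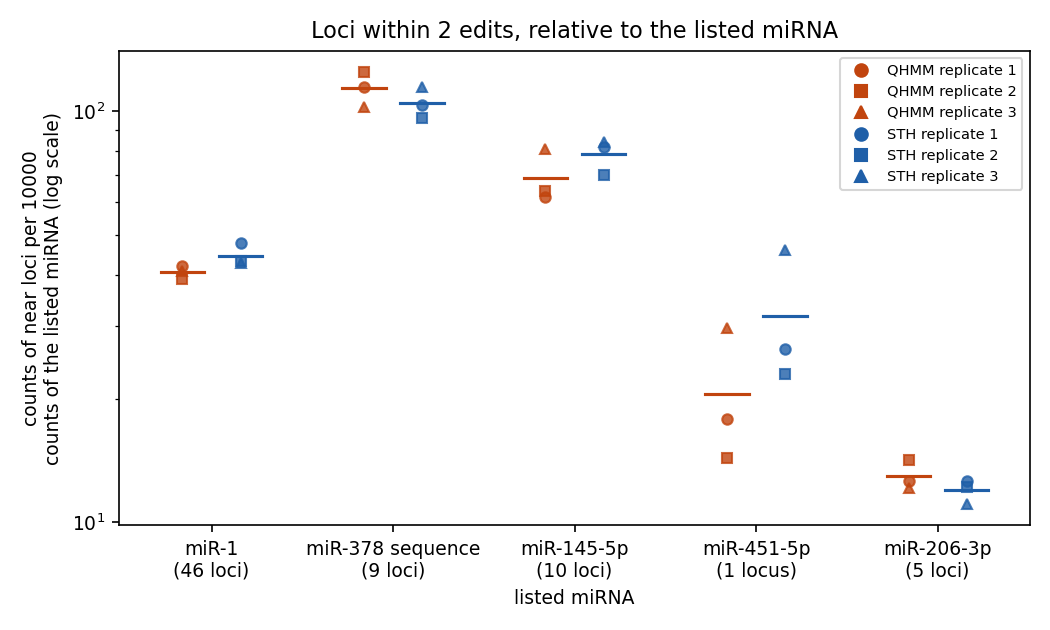
Summed counts of the short unnamed loci within 2 edits of a listed miRNA, per 10000 counts of that miRNA (log scale), for the 5 miRNAs with the most such counts. Points are single libraries and bars are means of 3 libraries per breed. For miR-1 all libraries lie between 39.1 and 47.7, and for miR-451-5p between 14.3 and 46.0.

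Of the 192 near loci 87 (45.3%) belonged to 15 miRNAs with at least 100000 counts, and these 87 held 13.9% of the counts of the short loci. The rest lay near miRNAs with fewer counts, in part fewer than the locus itself. chr21_38828, for instance, had 14184 counts and its nearest listed sequence, the G- and C-rich miR-3960, had 1772.

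Whole sequences within a listed miRNA were rare. Only 6 loci were contained in one, and none in a sheep miRNA, while 68 shared a run of at least 14 bases with one. The most abundant of the 6 was chr2_4574, which starts at base 4 of human miR-3613-5p and had 61, 34 and 54 counts in QHMM against 67, 46 and 55 in STH.
chr2_4574: tgtacttttttttttgtt
chr3_10497: gaggcgggggggcgagc
chr1_2287: gtgtgtgtgtgtgtgtgt
chr5_15026: tacttctttatgtgccc
The others were less frequent. chr3_10497, from base 2 of miR-6087, had 46 counts in total, the repeat at chr1_2287, found in miR-466i-5p, had 38, and chr5_15026, from base 4 of the opposite arm of miR-1, had 33. Some loci, chr1_2287 again among them, were inside longer unnamed sequences: 16 within an unnamed mature locus of 20 nt or more and 7 within a star sequence. The most abundant was chr19_36272, whose 17 bases open the 22 bases of chrx_45080. It had 84, 55 and 73 counts in QHMM against 70, 65 and 93 in STH, whereas chrx_45080 had 4802, 4521 and 3582 in QHMM and 5497, 5210 and 6223 in STH.
chr19_36272: agaggtaaaaaattgat
chrx_45080: agaggtaaaaaattgatttgac

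A seed shared with a sheep miRNA had nearly the same share as in the longer loci. Bases 2 to 8 equalled those of a listed sheep miRNA at 25 short loci (1.23%) and at 18 longer ones (1.1%). The 4 most abundant are shown with these bases in capitals.
chr12_26614: gTGGTCCCttcaccagctg
chr2_7071: aGAATGTTttcattaaa
chr14_29537: tTGGTCCCttcaccagct
chr2_5339: tGAGATGAagcactggt
chr12_26614, with the seed of miR-133, had 107, 47 and 134 counts in QHMM against 54, 62 and 96 in STH. chr2_7071, with that of miR-409-3p, a miRNA of the imprinted DLK1-DIO3 cluster, had 43, 30 and 91 in QHMM and 33, 25 and 62 in STH. Their breeds overlapped. chr14_29537, again with the seed of miR-133, had 209 counts in total and chr2_5339, with that of miR-143, a companion of miR-145 in smooth muscle, had 57. None of these 4 passed the breed test, with adjusted p of 0.622, 0.623, 0.959 and 0.834 in the order shown.

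Many loci shared their sequence, so they were not independent. The 2025 loci had 1767 distinct sequences, and 233 sequences stood at several loci, 491 loci in all and at most 4 per sequence. Of 211 sequences found at 2 loci, 148 were at loci with consecutive serial numbers and 55 on different chromosomes. Only 6 of the 233 had the same counts at each of their loci. A neighbouring pair, chr6_17303 and chr6_17304, had nearly equal counts: 555, 549 and 951 in QHMM and 682, 649 and 1136 in STH at the first, and 560, 545 and 921 in QHMM and 671, 616 and 1189 in STH at the second.
chr6_17303 and chr6_17304: gactctggcatgctaac
By contrast, chrx_46065, with the sequence of chr25_42777, had 80, 46 and 72 counts in QHMM against 41, 47 and 74 in STH, while chr25_42777 had 10750 counts in total. Loci with the same or nested sequences formed 246 sets of 528 loci with 11.6% of the counts. Loci within 1 edit of each other formed 270 sets of 619 loci with 26.4%, the largest of 9 loci.

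Between the breeds 7 short loci changed, and all 7 were lower in QHMM than in STH. The filter on low counts kept 454 of the 2025 loci, and 1571 were not tested. It keeps a locus that is high enough in 3 libraries, the number of a breed. Of the 7 loci, chr13_28252, chr2_4552, chr4_13580 and chr15_31518 met it only through STH, so the filter set their direction. Of those tested 1.54% passed an adjusted p of 0.05 in edgeR's quasi-likelihood test, against 2.2% of all 1274 names of the table in either direction and 1.88% higher in STH. The share of the short loci was thus not above that of the table. Among the longer unnamed loci 6 of 161 (3.73%) passed. The count and its direction depended on the filter and the tool. In edgeR with at least 10 counts in every library 0 loci passed, and 36 of 329 had an unadjusted p under 0.05. Of the 7 loci, that filter let only chr2_6306 and chr2_6308 be tested, each at an edgeR adjusted p of 0.0634. Its 0 therefore says nothing of the rest of the 7. In DESeq2 13 passed, 2 of them higher in QHMM, and 20 passed with no filter on low counts, 4 of them higher in QHMM. Leaving out 1 library at a time moved the count of 7 to between 2 and 11, all lower in QHMM. It was 2 without QHMM replicate 3 or without STH replicate 3, 3 without replicate 2 of either breed, 4 without QHMM replicate 1 and 11 without STH replicate 1.

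At an unadjusted p under 0.05 stood 56 (12.3%) of the 454, against 13.7% of all names. The breeds did not overlap in CPM at 70 (15.4%), against 17.2% of all names, with 38 higher in STH and 32 higher in QHMM. The median log2 fold change was 0.03, as it was over all names. Over the 6 libraries the highest CPM of a locus was a median of 2.62 times its lowest, against 2.48 over all names, and over 10 times at 21 loci. In bulk tissue, fewer cells of a type and less RNA per cell cannot be told apart.

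**Figure D4:**
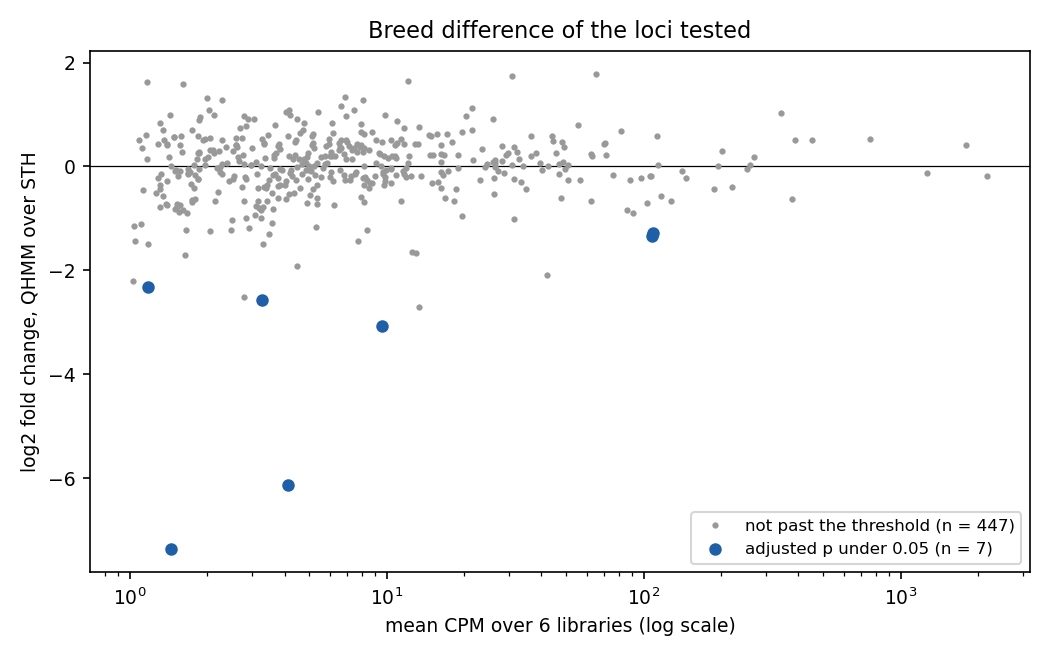
Log2 fold change of QHMM over STH against mean CPM over 6 libraries (log scale) for the 454 short unnamed loci tested. Grey points did not pass an adjusted p of 0.05, and blue points are the 7 that did, all below 0.

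The sequences of the 7 loci are given because they passed the threshold between breeds in the main fit.
chr13_28252: tgtgattagattgggcc
chr2_4552: tagctagtaagtgtcagag
chr3_9315: atggttgcaaagcatgaa
chr4_13580: ctcgcgggctgtgcggcg
chr15_31518: tggtggttcagttggtag
chr2_6306 and chr2_6308: tcccgggtttcggcacc
Each of the 7 lay at least 4 edits from every listed miRNA, and none belonged to the loci near miR-1 or the other muscle miRNAs.

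Both loci with the widest difference were nearly absent from QHMM. chr13_28252 had no count in any QHMM library and 12, 16 and 35 counts in STH. With 3 counts over the QHMM libraries as the floor that a count of 0 allows, it was at least 20.2-fold higher in STH (edgeR adjusted p = 0.00183). chr2_4552 had 0, 2 and 0 counts in QHMM against 28, 40 and 111 in STH, a ratio of 85.9 with a 95% counting interval of 23.4 to 715 (adjusted p = 0.00183). STH replicate 3 was highest at both. Both passed in all 15 alternative fits that tested them. They met the low-count filter of the main fit only through STH, which set their direction. The filter of at least 10 counts in every library left them untested. Their star sequences had 1 and 6 counts in total.

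Listed miRNAs with the same outline were also present, and are named after their values were seen. miR-202-5p, a miRNA of the gonads, had 1, 0 and 1 counts in QHMM against 71, 21 and 145 in STH. miR-449a-5p, known from ciliated epithelia and testis, had 1, 1 and 0 in QHMM and 52, 41 and 82 in STH, and miR-1264-5p had 1, 0 and 0 in QHMM and 14, 20 and 48 in STH. The epithelial list of 18 miRNA names, summed, was 14 to 44.5 CPM in QHMM and 17.7 to 30.3 CPM in STH, so it overlapped, and 13 of the 18 were at 0 in at least 1 library. The 13 names of myofibre miRNAs summed to 515000 to 545000 CPM in QHMM and 450000 to 536000 CPM in STH, so the markers of the labelled tissue were high in every library. The 10 leukocyte names summed to 1790 to 1970 CPM in QHMM and 1190 to 1460 CPM in STH, and 5 endothelial names to 15600 to 32100 and 27800 to 31400. The part of other cells in the 7 loci was not tested.

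The remaining 5 were present in both breeds. chr3_9315 had 18, 8 and 17 counts in QHMM against 31, 104 and 241 in STH, with the 3 STH libraries far apart. Its log2 fold change was -3.08 ± 0.63 (SE, adjusted p = 0.0367). chr4_13580, rich in G and C, had 3, 6 and 10 counts in QHMM against 17, 39 and 65 in STH, a log2 fold change of -2.57 ± 0.587 (SE, adjusted p = 0.0415). Both were highest in STH replicate 3, and without that library the adjusted p was 0.146 and 0.184. Both calls were also lost without any 1 of the QHMM libraries or without STH replicate 2, at 0.0949 to 0.181 for chr3_9315 and 0.0752 to 0.115 for chr4_13580. They passed in 9 and 10 of 15 alternative fits. As said above, chr4_13580 met the low-count filter of the main fit only through STH, which set its direction. Most of the alternative fits used the same kind of filter.

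chr15_31518 had 5, 2 and 1 counts in QHMM against 16, 10 and 17 in STH, with a log2 fold change of -2.33 ± 0.536 (SE, adjusted p = 0.0415). It passed in 6 of 15 alternative fits, with an adjusted p from 0.0348 to 0.2. Like chr4_13580, it met the low-count filter only through STH, which set its direction. The call was lost whichever library was left out (0.0558 to 0.2), with no filter on low counts (0.12) and in DESeq2 (0.0687). It shared a run of 14 bases with one of the 7 tRNA loci left out, which together took 0.658 to 0.879% of counts in QHMM and 2.33 to 2.85% in STH. Whether its counts came from the same RNA was not tested. In all, 6 of the short loci shared a run of at least 13 bases with those tRNA loci.

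chr2_6306 and chr2_6308 carry 1 sequence and are therefore a single observation. The first had 366, 415 and 435 counts in QHMM against 903, 955 and 1496 in STH, and the second 439, 415 and 426 in QHMM and 894, 984 and 1449 in STH. The breeds did not overlap, and the QHMM libraries stood close together. The log2 fold changes were -1.34 ± 0.321 and -1.28 ± 0.306 (SE), with an adjusted p of 0.0471 for each, and STH was 2.65 and 2.49 times QHMM. chr2_6306 passed in 9 of 15 alternative fits (adjusted p from 0.00698 to 0.185) and chr2_6308 in 9 of 16 (0.0075 to 0.184). Both were lost without QHMM replicate 1 or 3, without STH replicate 2 or 3, with all rows of a name in the fit and under the filter of 10 counts in each library, and chr2_6308 also without QHMM replicate 2. These were the most abundant of the 7, and neither had a star count.

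**Figure D5:**
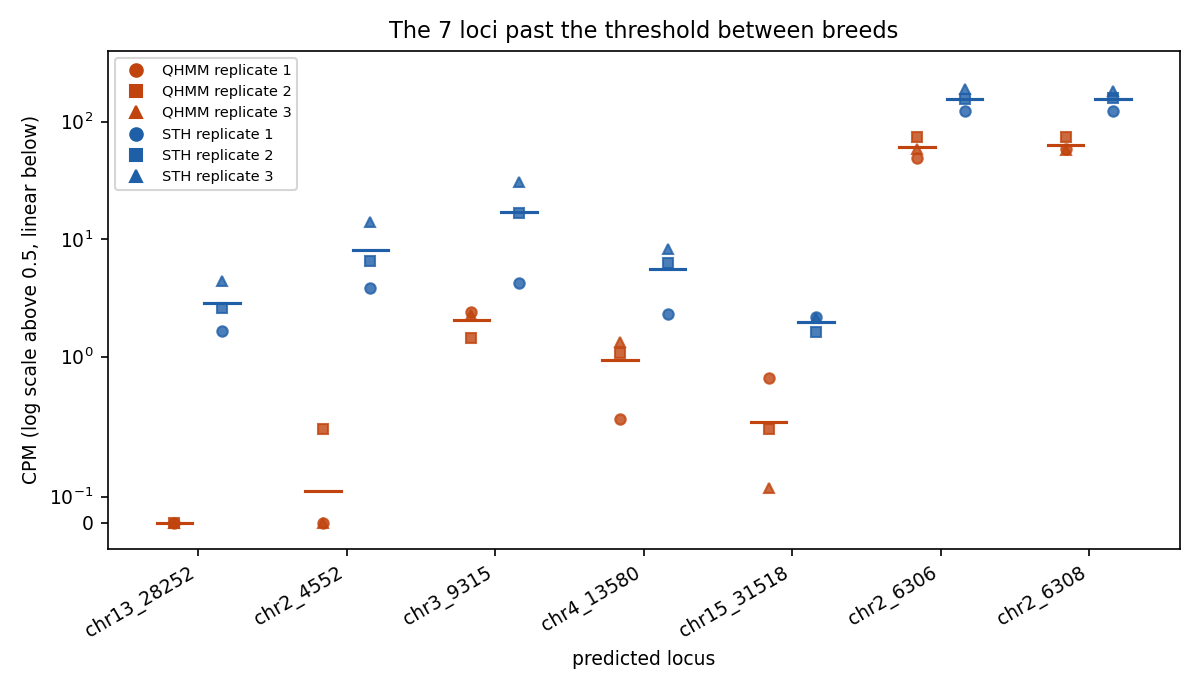
CPM (log scale above 0.5, linear below) of the 7 short unnamed loci past the threshold between breeds. Points are single libraries and bars are means of 3 libraries. At every locus each STH library lies above each QHMM library, and chr13_28252 is at 0 in QHMM.

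A widely varying locus outside the breed result, chosen after its values were seen, was chr7_18818. It ran from 67 to 1643 counts in QHMM, with QHMM replicate 3 highest, and reached 869 counts in STH replicate 1, and its adjusted p was 0.912.
chr7_18818: gggagacgcgtgtgttt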

How the data were processed

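Small RNA of 6 libraries, 3 QHMM and 3 STH, was analysed. The deposited values are raw counts of reads for each listed sequence, which the authors had not normalized. Oar_v3.1 (a genome build) and DESeq stand in the submitters' processing notes. Which aligner and which predictor of loci were used, and how a read with several matches was counted, is not given in the sources used here.

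All columns of counts were mapped to libraries by their labels. Replicates of a breed differed by a chi-square of at least 80.3 per degree of freedom, so no library was a copy of another. Breeds were compared on 1 row per name (the row with the highest total) by the quasi-likelihood test of edgeR 4.0.16 (R 4.3.3), fitted robustly after filterByExpr and TMM scaling, at a p under 0.05 adjusted by Benjamini-Hochberg over 1274 names, fold changes as QHMM over STH, no covariates. The common dispersion was 0.109. Alternatives used DESeq2 1.42.0, other factors and filters, a replicate block, other treatments of rows and leaving out each library. The fit was tested on simulated data. Edit distances allowed a locus to lie anywhere within a listed sequence, and were computed in Python 3.11.15 (numpy 2.4.6, pandas 2.3.3, scipy 1.17.1).

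By rule, the named loci were the 10 most abundant, all past the threshold, the 4 most abundant contained in a miRNA, the leading pairs of 3 sets with shared sequence and the 4 most abundant with a sheep seed. The comparison with near miRNAs was added after the data were seen, and the other loci named in the text (those near miR-1, miR-145-5p and miR-451-5p, chr19_36272 and chr7_18818) were chosen after their values were seen. The loci and lists were chosen with earlier results of these data known. Counting intervals are exact (Clopper-Pearson) at 95% and, like the floor of 3 counts, cover counting error only.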

Additional observations from a re-analysis of the deposited data

How the results depend on the processing

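The 7 loci past the threshold became 13 with DESeq2 (2 of them higher in QHMM, 6 shared with edgeR's 7) and 20 with no filter on low counts (6 shared). With at least 10 counts in every library 0 passed, where edgeR tested 329 loci and 36 had an unadjusted p under 0.05. Of the 7, only chr2_6306 and chr2_6308 were tested under that filter. Leaving out 1 library gave 2 to 11. With other scaling factors, other treatments of rows or without the near loci, the count stayed within 1.5 times. Over 106 alternative values for the 7 loci the sign was the same, which the choice of loci largely fixes, and 73 passed the threshold. To look for pairs, the breed mean of log CPM was subtracted for each name. These deviations correlated at 0.064, 0.24 and 0.118 between same-numbered libraries of the breeds. Not all were over 0.1, so the numbers were not taken as pairs, although the deviations of each library correlated best with its own number. With a replicate block 6 loci passed, 5 of them shared.

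The mean share of counts of 1.12% was 1.56% over 1 row per name, 2.38% without miR-1 in the total, 0.966% without the most abundant locus and 0.9% without the loci within 2 edits of a miRNA. Loci in all libraries were 329 at a minimum of 10 counts and 595 after thinning. Loci contained in a miRNA were 0 for sheep names, and 68 loci shared a run of at least 14 bases with a miRNA without all being contained in it. Near loci were 61 at no more than 1 edit and 128 for miRNAs of at least 1000 counts. The median locus had 7 counts, and 1571 loci were too rare for the breed test.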
